A study of Mus musculus with 59 samples.

Results

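Dst, Rusc2, Rilpl1 and Smim31 are 4 mouse genes that were selected on a strong gain of the histone mark H3K4me3 in the uterus between young mice and mice of 54 to 65 weeks. Every peak that the deposited tables assign to these genes was taken. That gave 53 peaks of 80181 in both tables, of which 16 (of 25827) were H3K4me3 peaks and 37 (of 54354) were peaks of H3K27ac. Dst had 7 H3K4me3 and 24 H3K27ac peaks, Rusc2 had 6 and 6, Rilpl1 had 2 and 5, and Smim31 had 1 and 2. Because the H3K4me3 contrast between the oldest and the young mice chose the genes, its values are given below as a description without a test. H3K27ac was not used in the choice, but it was measured in the same animals.

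Both marks were profiled by sequencing after immunoprecipitation of uncrosslinked chromatin from frozen pieces of endometrial tissue of C57/B6 mice, labelled as uterus. The 7 young mice were 9 to 11 weeks old. Older mice formed aged group 1, with 4 animals of 28 to 36 weeks, aged group 2, with 6 of 42 to 48 weeks, and aged group 3, with 10 of 54 to 65 weeks. Each of the 27 animals gave 1 library per mark, with 6.835 M to 48.29 M reads for H3K4me3 (median 10.022 M) and 7.604 M to 16.945 M for H3K27ac (median 11.162 M). The groups share strain and tissue, and the labels used here give no genotype, treatment or cycle stage. Marker genes of epithelium (19 of 24), stroma (13 of 19), smooth muscle (14 of 15) and leukocytes (15 of 17) had H3K4me3 peaks, and the cell makeup of the pieces was not measured.

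H3K4me3 is placed around the start sites of genes in use, and H3K27ac marks active promoters and enhancers. H3K4me3 inside a gene can mark an internal start site. Dst encodes dystonin, a giant plakin that ties cytoskeletal filaments to each other and, in its epithelial form, ties keratin filaments to the hemidesmosomes that anchor epithelial cells to the basement membrane. Its neuronal, muscle and epithelial forms start at different places along the gene. Rusc2 encodes a RUN and SH3 domain protein that binds Rab GTPases, the switches of vesicle traffic. Rilpl1 encodes a relative of the lysosomal Rab effector RILP that binds Rab8 and Rab10 after the kinase LRRK2 has phosphorylated them, and it restrains the growth of primary cilia. Smim31 encodes a small integral membrane protein.

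The gaining peaks were compared with the annotated starts of the same genes, so the 250 bases before RefSeq starts that lay under an H3K4me3 peak are shown first (RefSeq, GRCm38.p6, 5′ to 3′, with each CpG in capitals). RefSeq rows were found for 3 of the 4 genes, and none was used for Smim31. The Dst window, chr1:34011345-34011594 on the plus strand, held 22 CpGs.
Dst start: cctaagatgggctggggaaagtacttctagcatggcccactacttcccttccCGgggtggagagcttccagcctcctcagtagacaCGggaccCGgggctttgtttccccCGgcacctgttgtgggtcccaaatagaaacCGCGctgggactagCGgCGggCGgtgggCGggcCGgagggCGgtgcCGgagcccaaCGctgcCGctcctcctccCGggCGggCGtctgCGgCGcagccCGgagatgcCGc
The first Rusc2 window, chr4:43381732-43381981 on the plus strand, held 26 CpGs, and the downstream Rusc2 window, chr4:43406252-43406501, held 6. A further Rusc2 window under the same peak as the first, chr4:43381819-43382068, overlaps it, held 36 CpGs and is not printed.
Rusc2 first start: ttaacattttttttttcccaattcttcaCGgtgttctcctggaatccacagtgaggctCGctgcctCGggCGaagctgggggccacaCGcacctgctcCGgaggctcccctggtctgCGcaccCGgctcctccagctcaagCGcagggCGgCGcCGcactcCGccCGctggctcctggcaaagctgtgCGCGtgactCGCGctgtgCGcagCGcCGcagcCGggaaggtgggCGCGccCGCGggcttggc
Rusc2 downstream start: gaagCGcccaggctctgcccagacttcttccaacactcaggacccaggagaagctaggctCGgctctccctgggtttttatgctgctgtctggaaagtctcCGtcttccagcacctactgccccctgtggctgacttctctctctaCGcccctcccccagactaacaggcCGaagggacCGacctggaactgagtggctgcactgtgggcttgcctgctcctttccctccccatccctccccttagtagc
The Rilpl1 window, chr5:124531392-124531641 on the minus strand, held 17 CpGs.
Rilpl1 start: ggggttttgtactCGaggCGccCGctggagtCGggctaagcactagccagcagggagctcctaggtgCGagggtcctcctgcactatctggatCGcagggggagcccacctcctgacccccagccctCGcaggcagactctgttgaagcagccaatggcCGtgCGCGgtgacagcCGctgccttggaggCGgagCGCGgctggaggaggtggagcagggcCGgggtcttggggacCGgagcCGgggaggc
The median over 32851 RefSeq windows of this length was 6 CpGs. The letters of a GC box, GGGCGG on either strand, were in the Dst and first Rusc2 windows and in 32.7% of all windows. The letters CCAAT, on either strand, were in the first Rusc2 and the Rilpl1 windows and in 33.8% of all windows. TATAAA, on either strand, was in none of those shown and in 12.4% of all windows. Such matches describe letters only. None of these starts lay inside a main gaining peak: the nearest was 35.9 kb away for Dst, 6.27 kb for Rusc2 and about as far for Rilpl1 as for Dst.

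Levels below are log2 RPKM, a read count corrected for the length of the peak and the depth of the library, after quantile normalization across the libraries of a mark. Differences are log2 differences between group means ± the standard error (SE) of a limma model of all 27 libraries. The main gaining peak of a gene is its H3K4me3 peak with the smallest p between aged group 3 and young.

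The main gaining peak of Dst lay inside the gene, 66306 bases after the start of its RefSeq extent (chr1:33907888-34308662, plus strand), at chr1:33974194-33975721. In young mice its H3K4me3 level ran from -0.44 to 1.13 with a median of 0.50, from 13 to 37 reads per library. In aged group 1 the levels were 1.96, 1.04, 2.66 and 1.51. In aged group 2 they ran from 0.95 to 3.30 (median 2.16), and in aged group 3 from 2.46 to 3.96 (median 3.17). Every library of aged group 3 was above every young library, whereas single libraries of aged groups 1 and 2 lay within the young range. Young libraries averaged 0.37 ± 0.56 (SD, n = 7) and those of aged group 3 averaged 3.18 ± 0.57 (SD, n = 10). The difference was 2.81 ± 0.30, or 7.01-fold. Its mean stood at percentile 4.0 of all H3K4me3 peaks in young and at percentile 59.6 in aged group 3. As in every result here, a larger share of cells that carry a mark and more of the mark per cell cannot be told apart in tissue pieces.

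The main gaining peak of Rusc2 lay 21221 bases after its start (RefSeq extent chr4:43377202-43427092, plus strand), at chr4:43398423-43400231. Young levels ran from -0.15 to 1.84 with a median of 1.30 (12 to 83 reads). The 4 libraries of aged group 1 held 2.04, 2.53, 2.35 and 1.91. Aged group 2 ran from 2.26 to 2.91 (median 2.40) and aged group 3 from 2.64 to 3.31 (median 3.14). All 20 older libraries lay above every young one at this peak, and the aged group 3 libraries were close to each other (SD 0.26). The difference between aged group 3 and young means was 1.82 ± 0.20 (3.52-fold).

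The main gaining peak of Rilpl1 was at the other end of the gene from its start. It lay at chr5:124496689-124497418, 34023 bases into an extent of chr5:124493080-124531441 on the minus strand. Young levels ran from -1.06 to 1.59 (median 0.015), from only 3 to 28 reads per library, so the young mean of 0.34 ± 0.96 (SD, n = 7) was the least precise of the 4. Aged group 1 held 2.08, 1.73, 2.11 and 1.96, aged group 2 ran from 1.45 to 2.81 (median 1.86), and aged group 3 from 2.09 to 3.27 (median 2.88). Aged group 3 and aged group 1 did not overlap with young, and aged group 2 did through its lowest library. The mean of aged group 3 was 2.82 ± 0.36 (SD, n = 10), a difference of 2.48 ± 0.28 (5.58-fold).

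Smim31 had a single H3K4me3 peak, chr8:65127884-65129978, which spans the start of its RefSeq extent (chr8:65085613-65129563, minus strand). Young levels ran from 0.11 to 0.89 with a median of 0.48 (17 to 40 reads). Aged group 1 held 1.40, 1.36, 1.55 and 1.41, close together and all above young. Aged group 2 ran from 1.05 to 3.13 (median 2.2) and aged group 3 from 1.86 to 4.21 (median 3.21). None of the 20 older libraries overlapped with young, and aged group 3 spread most widely (SD 0.85, against 0.29 in young). The difference between aged group 3 and young was 2.64 ± 0.31 (6.21-fold).

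**Figure D1:**
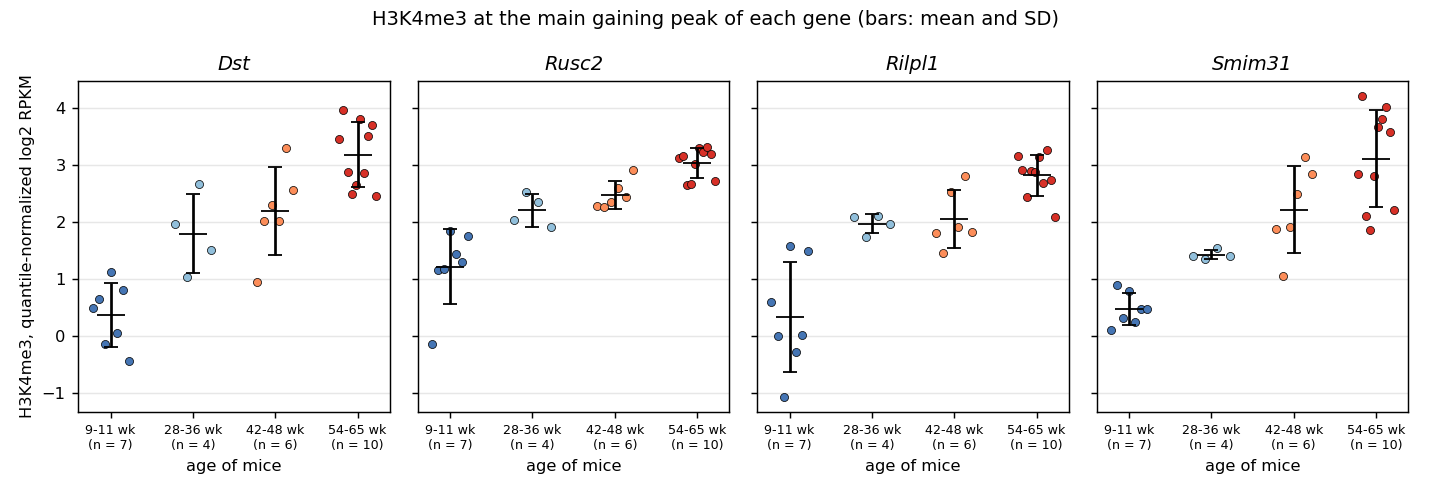
H3K4me3 level (quantile-normalized log2 RPKM, y axis) at the main gaining peak of each gene in the 27 libraries, by age group (x axis, weeks); points are animals, bars the mean and SD. All 10 libraries of the oldest group lie above all 7 young ones in each panel, with Smim31 spread from 1.86 to 4.21 in the oldest group.

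The 2 groups between young and oldest lay between them in mean at all 4 peaks. Against the same young libraries, the differences of aged group 1 were 1.43 ± 0.38 at Dst, 0.99 ± 0.25 at Rusc2, 1.63 ± 0.36 at Rilpl1 and 0.95 ± 0.39 at Smim31. Those of aged group 2 were 1.82 ± 0.33, 1.26 ± 0.22, 1.72 ± 0.32 and 1.75 ± 0.35 in the same order. At Rilpl1 the 2 values were nearly equal, and at Smim31 the later one was the larger. Every library above every young library was seen at 4 of the 16 member peaks in aged group 3 (0.918% of all H3K4me3 peaks), at 2 in aged group 2 (Rusc2 and Smim31, 0.337% of all peaks) and at 3 in aged group 1 (Rusc2, Rilpl1 and Smim31, 0.48% of all peaks). These comparisons share the young libraries with the choice of genes.

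The means compared in aged group 2 against aged group 1 came from no library of the contrast that chose the genes. The normalization and the spread behind the SE, interval and p came from all 27 libraries. The differences were 0.40 ± 0.39 at Dst, 0.27 ± 0.26 at Rusc2, 0.082 ± 0.37 at Rilpl1 and 0.79 ± 0.40 at Smim31. The Smim31 value came nearest to the threshold, with a 95% interval from -0.030 to 1.61 and an unadjusted p of 0.0584 (limma). The test called 0 of the 16 member peaks, as it called 0 of 25827 H3K4me3 peaks (0%) at an adjusted p under 0.05. At an unadjusted p under 0.05 there were 659 peaks in all, 0 of them among the members.

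Most other H3K4me3 peaks of the same genes were not higher in aged group 3. Between aged group 3 and young, 5 of the 16 member peaks had a limma adjusted p under 0.05 as higher (14.2% of all peaks did) and 4 as lower (16.4% of all peaks). The main peaks of the 4 selected genes are among the 5, so these counts describe the selection and nothing is read from them against all peaks. The fifth higher peak was a second Dst peak at chr1:34130416-34131479, 223.1 kb into the gene, whose mean went from 0.97 to 1.79 (0.82 ± 0.31, with 5 of 10 libraries above every young one). It was close to the threshold: the number of higher member peaks was 4 with the values as deposited, with the code digit, the mouse number or the marker score (each described below) in the model, and on leaving out most single libraries. The member just outside the threshold was the Rusc2 peak at chr4:43394203-43395187, at 0.43 ± 0.18.

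All 4 lower peaks lay over RefSeq starts of these genes. Their number was 1 with the code digit as a factor (4.25% of all peaks were lower there, against 16.4%), 1 with a factor for the mouse number (6.82%), 1 without digit 6 (4.57%), 0 with the score (0.182%) and 0 among mouse numbers under 100 (0.867%). The Rilpl1 promoter peak (chr5:124528414-124532349) had levels of 3.12 to 3.42 in young (median 3.31) and 2.21 to 3.43 in aged group 3 (median 2.68). It was below every young library in 9 of 10 libraries of aged group 3, and the difference was -0.59 ± 0.13. The peak over the first Rusc2 starts (chr4:43380893-43384436) differed by -0.49 ± 0.14 and was below every young library in 7 of 10 libraries. The peak over the downstream Rusc2 start (chr4:43405656-43408302) differed by -0.56 ± 0.18, below every young library in 6 of 10 libraries. At Dst, the peak over the printed start (chr1:34010863-34012509) differed by -0.27 ± 0.086, from a young mean of 3.89 to 3.62. The strongest Dst peak (chr1:34120248-34122727) was level, at 4.11 in young and 4.19 in aged group 3.

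**Figure D2:**
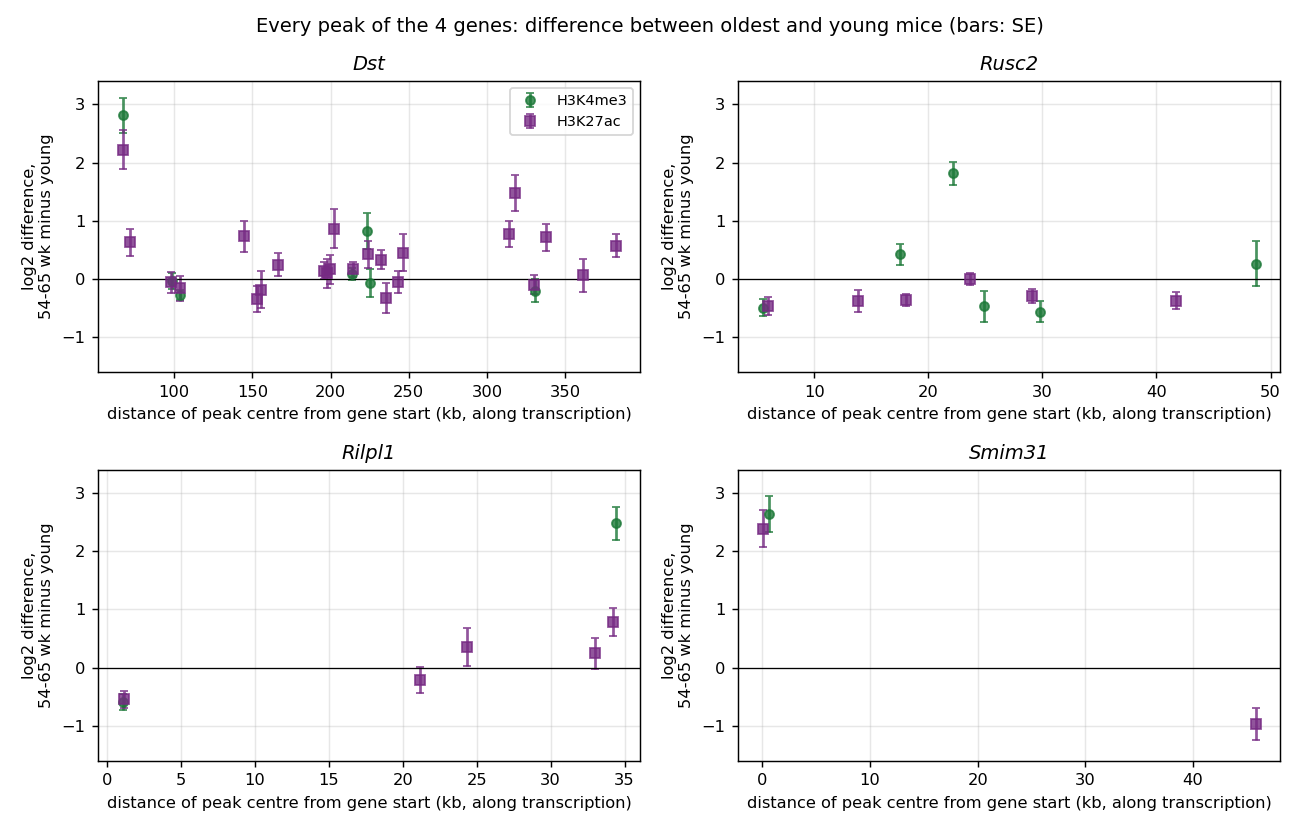
Log2 difference between aged group 3 and young (y axis, bars SE) for all 53 peaks of the 4 genes against the distance of the peak centre from the gene start (x axis, kb along transcription), H3K4me3 as circles and H3K27ac as squares. The largest H3K4me3 gains of Rusc2, Rilpl1 and Dst lie inside the genes, Dst has further gains along its length, and the points at the Rilpl1 start lie below 0 in both marks.

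The contrast within a gene was put as 1 number per library: the mean level of its gaining H3K4me3 peaks minus the mean of its other H3K4me3 peaks. This gap went from -2.55 ± 0.65 in young to -0.64 ± 0.67 in aged group 3 at Dst, from -0.87 ± 0.65 to 1.12 ± 0.37 at Rusc2, and from -2.97 ± 0.97 to 0.10 ± 0.62 at Rilpl1 (SD, n = 7 and 10). The Rusc2 inner peak thus stood below the mean of the other peaks of its gene in young and above that mean in aged group 3. In mean level the Rilpl1 inner peak stood below its promoter in young and level with it in aged group 3. Between aged groups 1 and 2, which the choice of genes did not use, the gap differed by 0.30 at Dst (exact permutation test over 210 assignments, two-sided, p = 0.371, adjusted p = 0.557). It differed by 0.45 at Rusc2 (exact p = 0.0238, adjusted p = 0.0714, 5 of 6 libraries of aged group 2 above all of aged group 1) and by 0.17 at Rilpl1 (exact p = 0.6, adjusted p = 0.6). None of these 3 passed after adjustment, although 210 assignments allow a p of 0.00476. For Rusc2 the adjusted p was 0.0476 without aged group 2 replicate 2. The Rusc2 main peak itself differed by 0.27 between these groups, and the other Rusc2 peaks by -0.66 to 0.14. Part of the Rusc2 gap difference thus came from lower levels at other peaks of the gene.

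H3K27ac rose at the main gaining sites of Dst, Smim31 and Rilpl1, and the wide H3K27ac peak over that of Rusc2 did not pass the test. The H3K27ac peak with the longest overlap was taken for each. At Dst (chr1:33974064-33975554) young levels ran from -1.55 to 0.82 (median 0.31) and aged group 3 from 1.39 to 2.74 (median 2.199), with no overlap. The difference was 2.22 ± 0.34, or 4.67-fold (limma adjusted p = 0.000322, higher than every young library in 10 of 10). Aged group 1 held 1.49, 0.38, 1.69 and 0.32 there, and aged group 2 ran from -0.049 to 2.15.

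At the Smim31 start (chr8:65128884-65130158) young H3K27ac levels ran from -0.52 to 0.54 (median -0.052). In aged group 3 they ran from 0.97 to 3.36 (median 2.70), again with no overlap. The difference was 2.39 ± 0.32, or 5.22-fold (limma adjusted p = 5.35e-05, 10 of 10 libraries above every young one). Aged group 1 held 1.86, 0.94, 0.71 and 1.33, and aged group 2 ran from 0.94 to 2.67, so no older library at this peak was as low as a young one.

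At Rilpl1 (chr5:124496551-124497867) the H3K27ac change was smaller and the groups overlapped. Young levels ran from 0.15 to 1.49 (median 0.53) and those of aged group 3 from 0.93 to 2.21 (median 1.36), with 4 of 10 libraries above every young one. The difference was 0.79 ± 0.24, or 1.73-fold (limma adjusted p = 0.017). The Rusc2 site lay in an H3K27ac peak of 6545 bases (chr4:43397587-43404131) that covers 2 H3K4me3 peaks of the gene. Its levels ran from 1.48 to 2.13 in young and from 1.64 to 2.08 in aged group 3. The difference was 0.0011 ± 0.11 (95% interval -0.22 to 0.22, limma adjusted p = 0.994). The H3K4me3 peak covers 1809 of those bases, so this value averages over a wider stretch.

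**Figure D3:**
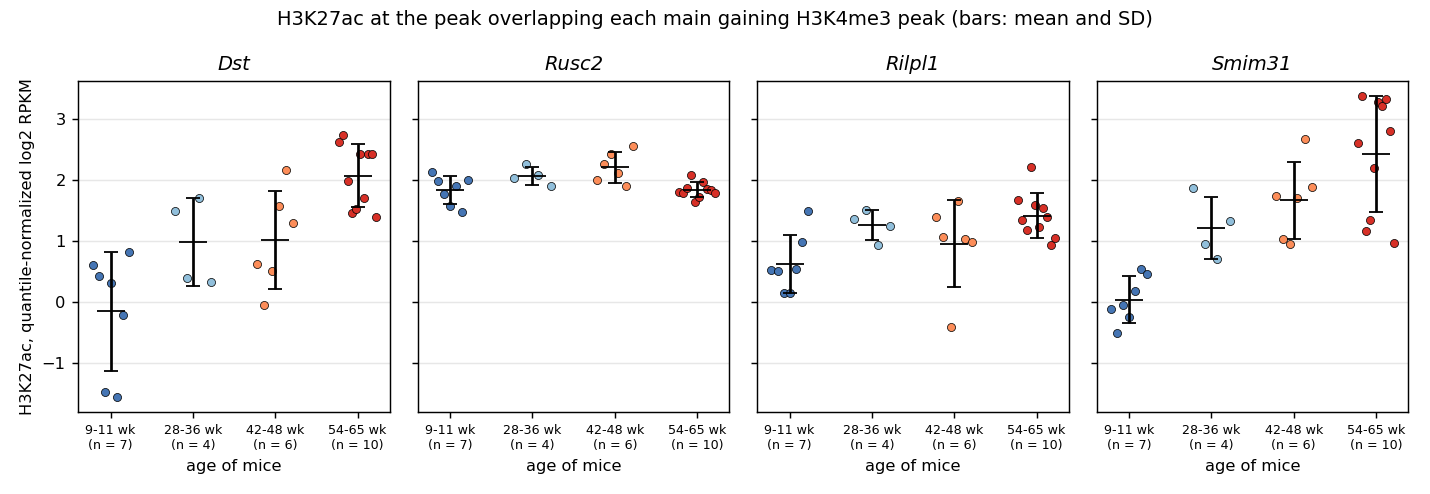
H3K27ac level (quantile-normalized log2 RPKM, y axis) at the peak that overlaps each main gaining H3K4me3 peak, by age group (x axis, weeks); points are animals, bars the mean and SD. Dst and Smim31 separate the oldest from the young libraries, Rilpl1 overlaps, and Rusc2 lies between 1.48 and 2.13 in young and 1.64 and 2.08 in the oldest group.

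The 3 H3K27ac calls depended on how the libraries were grouped. With the epithelium minus stroma score described below as a covariate, the differences were 1.68 at Dst (adjusted p = 0.139), 1.37 at Smim31 (adjusted p = 0.0638) and 0.80 at Rilpl1 (adjusted p = 0.448). Among mouse numbers under 100 alone (6 young and 3 aged group 3 animals), they were 2.57 (adjusted p = 0.0872), 2.36 (adjusted p = 0.0746) and 1.12 (adjusted p = 0.11). The Rilpl1 call was also lost with the digit of the library code as a factor (0.87, adjusted p = 0.0593) and without the 4 libraries of digit 6 (0.82, adjusted p = 0.0662), where Dst and Smim31 passed. What the digit and the mouse number stand for is not stated in the labels.

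Of all 37 H3K27ac member peaks, 10 were higher in aged group 3 than in young (14.4% of all H3K27ac peaks were) and 4 were lower (14.9% of all peaks). Every aged group 3 library was above every young library at 2 of the 37, the main sites of Dst and Smim31 (0.35% of all H3K27ac peaks). The median difference was 0.14 over the members and -0.063 over all peaks. Dst held 8 of the 10. Beside the main site these were 7 internal peaks with differences from 0.57 to 1.47. The largest of them, chr1:34225117-34226539, went from -0.20 to 1.27 (1.47 ± 0.31, limma adjusted p = 0.0029, 7 of 10 libraries above every young one). The peak at chr1:34220612-34222961 rose by 0.77 ± 0.22 (adjusted p = 0.0131, 9 of 10 libraries). The Dst peak over the printed start differed by -0.16 ± 0.21 (adjusted p = 0.571) and the other 15 that did not pass ran from -0.35 to 0.45. Only 1 of the 7 lay next to the main gaining site (chr1:33978919-33980110, 0.63 ± 0.23), and the other 6 lay 144.6 to 382.2 kb into the gene. None of the 7 overlapped an H3K4me3 peak of the gene, so H3K4me3 could not be compared at these sites. The H3K27ac peak over the second gaining H3K4me3 peak of Dst (chr1:34128919-34134838) did not pass (0.42 ± 0.23, limma adjusted p = 0.159).

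The 4 lower H3K27ac peaks included the Rilpl1 promoter (chr5:124527858-124532723), which fell by 0.55 ± 0.15 (limma adjusted p = 0.0122, below every young library in 9 of 10). The peak over the first Rusc2 starts fell by 0.46 ± 0.15 (adjusted p = 0.0207) and the Rusc2 peak next to it, chr4:43393164-43397259, by 0.36 ± 0.11 (adjusted p = 0.0178). At Smim31, a peak beyond the far end of the gene (chr8:65083005-65084477) fell by 0.97 ± 0.28 (adjusted p = 0.0141). The numbers of higher and lower member peaks were 0 and 0 with the score as a covariate, against 0.0644% and 0.0202% of all peaks. They were 0 and 0 among mouse numbers under 100 (0.0092% and 0.00736% of all peaks) and 3 and 0 with the code digit as a factor (1.4% and 1.11%). They were 4 and 0 without digit 6 (1.82% and 1.66%), and 5 and 2 with a factor for the mouse number, under 100 or above (6.75% each way). Without young replicate 3 the number of higher peaks was 5, and without young replicate 6 it was 6.

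Before the oldest age, H3K27ac of the members did not pass. In aged group 2 against young limma called 6 of 54354 H3K27ac peaks (0.011%), none of them a member, with 5 of the 37 members higher and 2 lower at an unadjusted p under 0.05, against 2699 and 2150 of all peaks. In aged group 1 against young it called 0 (0%). At an unadjusted p under 0.05, 4 members were higher and 0 lower there, against 1170 and 964 of all peaks. In aged group 2 against aged group 1 it called 0 (0%), with 1511 at an unadjusted p under 0.05 and 0 of these among the members. At Dst the differences from young were 1.13 ± 0.43 in aged group 1 and 1.17 ± 0.38 in aged group 2, and at Smim31 they were 1.17 ± 0.40 and 1.63 ± 0.36. The smallest adjusted p of these 4 was 0.146. As in H3K4me3, age and the series of mouse numbers can hardly be told apart in the comparisons of these groups with young.

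The difference between gaining sites and the rest of each gene was tested in H3K27ac. Per library, the mean level of the H3K27ac peaks that overlap a gaining H3K4me3 peak was set against the mean of the other H3K27ac peaks of the gene. At Dst the gap was -0.73 ± 0.38 in young and 0.31 ± 0.35 in aged group 3 (SD, n = 7 and 10), and all 10 older libraries lay above all young ones. The difference of 1.04 had an exact permutation p of 5.14e-05, the smallest that 19448 assignments allow (two-sided, adjusted p = 0.000206 over the 4 genes). At Smim31 the gap went from -1.40 ± 0.59 to 1.96 ± 1.52 (difference 3.35, exact p = 0.000257, adjusted p = 0.000514, 9 of 10 libraries). Smim31 had only 1 peak of each kind. The other peak, beyond the far end of the gene, differed by -0.97 ± 0.28, so part of the Smim31 difference came from that peak. At Rilpl1 it went from -0.45 ± 0.50 to 0.38 ± 0.36 (0.83, exact p = 0.0018, adjusted p = 0.0018, 2 of 10 libraries above every young one).

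At Rusc2 the H3K27ac gap went from -0.017 ± 0.17 to 0.36 ± 0.20 (0.37, exact permutation p = 0.00175, adjusted p = 0.0018, 8 of 10 libraries). There the wide peak was level and the other 5 peaks were at -0.29 to -0.46, so the Rusc2 gap came from lower levels elsewhere in the gene. These 4 tests compare sites within a library, and they use the same animals as the choice of genes.

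Within aged group 3, the animals with more H3K4me3 at a site were set against their H3K27ac there. The 10 animals were cut at the widest gap in level, which divides any set of values. Whether the animals form separate groups was not tested. At Dst the cut left 5 with H3K4me3 of 2.46 to 2.87 and 5 with 3.46 to 3.96. H3K27ac had a like gap at Dst, with 5 animals at 1.39 to 1.98 and 5 at 2.42 to 2.74. At Smim31 there were likewise 5 animals with H3K4me3 of 1.86 to 2.84 and 5 with 3.58 to 4.21, and H3K27ac had its widest gap between 3 animals at 0.97 to 1.35 and 7 at 2.19 to 3.36. The same animals were high in both marks at Dst, and at Smim31 the 5 highest in one mark were the 5 highest in the other. In H3K4me3 the widest gap left 3 and 7 animals at Rusc2, and 1 and 9 at Rilpl1. Pooled over the gaps, Pearson r was 0.96 at each of Dst and Smim31, given without a test. No r is given for the 5 animals on a side. In the 7 animals with a marker score above 1, a limit set after the data were seen, r was 0.94 at Dst and 0.92 at Smim31. Without the 2 of these 7 farthest from the median, it was 0.37 and 0.73. Of all 10 animals without the 2 farthest from the median, r was 0.93 at each of these genes.

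The relation did not pass the test at Rilpl1 or Rusc2. At Rilpl1 r was 0.39 (permutation p = 0.251, adjusted p = 0.334; rho = 0.47, permutation p = 0.181) and at Rusc2 it was -0.33 (permutation p = 0.366, adjusted p = 0.366; rho = -0.16, permutation p = 0.655). Of all 10 animals without the 2 farthest from the median, r was 0.02 and 0.29.

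**Figure D4:**
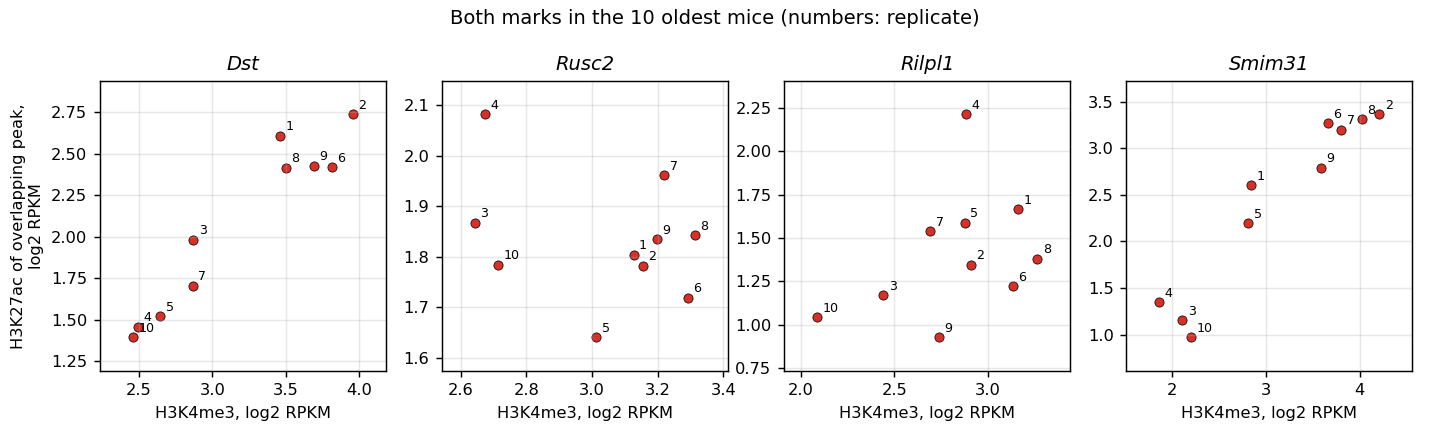
H3K4me3 of the main gaining peak (x axis) against H3K27ac of the overlapping peak (y axis), both in quantile-normalized log2 RPKM, in the 10 mice of 54 to 65 weeks; numbers are replicates. At Dst and Smim31 the widest gap in H3K4me3 lies between 5 lower and 5 higher animals. Replicates 3, 4 and 10 are lowest at Smim31, and Rusc2 and Rilpl1 show no clear line.

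Markers of cell types moved with age as well. Of the marker genes with an H3K4me3 peak, 17 of 19 of epithelium were higher in aged group 3 than in young and 12 of 13 of stroma were lower (limma). Leukocyte markers were higher in 8 of 15, and smooth muscle markers were lower in 8 of 14. Over all H3K4me3 peaks 14.2% were higher and 16.4% lower. The lists were chosen with earlier results of these data known, so the counts are a description and no independent finding about cell types. The leukocyte list did not move as one: the 7 that did not pass ran from -0.61 (Ikzf1) to 0.34 (Itgae), with Ptprc at -0.43. The mean level of the epithelium list ran from 2.15 to 2.91 in young and from 2.28 to 3.99 in aged group 3, and that of the stroma list from 2.90 to 3.48 and from 1.48 to 3.54. The lowest mean level of any of these 4 lists in an H3K4me3 library was 1.06 (smooth muscle, aged group 3). Of 3 further lists, mesothelium markers were lower in 4 of 5, with a median difference of -1.57. Endothelium markers were higher in 3 and lower in 3 of 13, and markers of ciliated cells higher in 1 and lower in 4 of 10. In H3K27ac, 10 of 19 epithelium markers were higher and 13 of 15 stroma markers lower. Leukocyte markers were higher there in 5 of 14, and smooth muscle markers lower in 5 and higher in 1 of 12. Over all H3K27ac peaks 14.4% were higher and 14.9% lower.

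The epithelium minus stroma score is the mean over the epithelium promoter peaks minus that over the stroma promoter peaks in a library. It rests on the same lists, chosen with earlier results of these data known. In H3K4me3 it ran from -1.23 to -0.04 in young (median -0.75), from -0.59 to -0.17 in aged group 1, from -0.76 to 1.37 in aged group 2 and from -1.16 to 2.61 in aged group 3 (median 1.58). In aged group 3, replicates 10, 3 and 4 had the lowest scores, -1.16, -0.01 and 0.01, and replicates 10 and 3 were the lowest at Rilpl1. The same 3 animals were lowest at Smim31, with 2.203, 2.107 and 1.864, and at Rusc2, with 2.71, 2.64 and 2.67. Each of the 3 was above every young library at the 4 main peaks, whose H3K4me3 values chose the genes.

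Within aged group 3 the scores fell into 3 animals up to 0.01 and 7 above 1, so the pooled relation of the main H3K4me3 peak to the score is given as a description. Pearson r was 0.92 at Smim31, 0.91 at Rusc2, 0.79 at Dst and 0.71 at Rilpl1. Without the 2 animals farthest from the median level it was 0.91, 0.92, 0.68 and 0.07 in that order, so the Rilpl1 relation rested on replicates 3 and 10. In the 7 animals with a score above 1, none passed after adjustment over the 4 genes: r was 0.92 at Smim31 (exact permutation p = 0.0151, adjusted p = 0.0603), 0.64 at Rusc2, 0.58 at Dst and -0.07 at Rilpl1. With the values as deposited, the pooled r was 0.65, 0.49 and 0.42 at Dst, Rusc2 and Rilpl1.

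With the score as a covariate, the H3K4me3 differences between aged group 3 and young were 2.03 ± 0.33 at Dst, 1.37 ± 0.23 at Rusc2, 1.99 ± 0.35 at Rilpl1 and 1.41 ± 0.23 at Smim31. Each was smaller than without it, and the Smim31 value by the largest factor. What part of the gains comes from the cell makeup of the pieces cannot be told apart from a change per cell in these data.

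**Figure D5:**
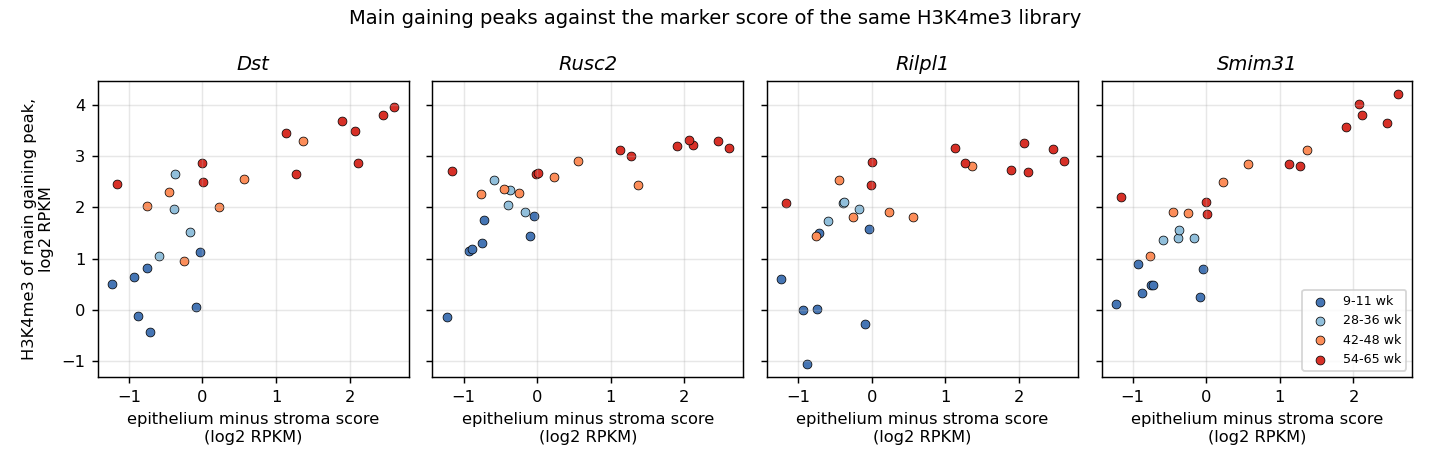
H3K4me3 of the main gaining peak (y axis, quantile-normalized log2 RPKM) against the epithelium minus stroma score (x axis, log2 RPKM) of the same library, 27 libraries coloured by age. The 3 oldest mice with scores of -1.16 to 0.01 overlap the young score range or lie just above it, and their levels are higher than those of all young mice in every panel, as for the other oldest mice.

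The 4 main peaks were also compared with each other and with the rest of the mark over the 27 libraries, after each group's mean was subtracted. These correlations describe deviations of animals from their group, and they share library depth and quality. The highest among the 4 was between Dst and Smim31 (r = 0.61), then Rusc2 and Smim31 (0.51), and the lowest between Dst and Rusc2 (0.19). The other peaks of the same gene mostly went the other way: r with the Rilpl1 promoter was -0.16, with the first Rusc2 starts -0.41, and with the Dst peak over the printed start -0.39. Exceptions were the Rusc2 peak at the end of the gene (chr4:43425473-43426334), with r = 0.67 to the main Rusc2 peak, and some Dst peaks. These were the second gaining Dst peak (chr1:34130416-34131479), with r = 0.33, and the strongest Dst peak (chr1:34120248-34122727), with r = 0.21.

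Among 14772 peaks of other genes, those most like Smim31 were promoter peaks of Padi2, which encodes a peptidylarginine deiminase that converts arginine to citrulline in proteins (r = 0.92), of the ubiquitin ligase gene Lnx1 (0.91) and of the sulfotransferase gene Chst8 (0.91). Those most like Dst were at Mcf2l (0.78), a guanine nucleotide exchange factor gene, at the forkhead gene Foxc1 (0.76) and at Wfdc15b (0.74). Those most like Rusc2 were at Mpeg1 (0.82), which encodes the macrophage pore-forming protein perforin-2, and at the zinc receptor gene Gpr39 (0.77). For Rilpl1 the highest were lower, at Ndufv3 (0.67), Rere (0.66) and Ccnl1 (0.65). The highest of 14772 values is large in part through the search itself. None of these values was tested, and those at Rilpl1 are the weakest.

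H3K4me3 peaks of other genes near the gaining sites had smaller differences between aged group 3 and young than the main peaks, which were chosen for their gains. In H3K27ac this did not hold at every site. The highest neighbours within 250 kb of Rusc2 (Atp8b5, 1.18) and Rilpl1 (Tctn2, 0.92) differed by more than the peaks at these sites (0.0011 and 0.79). Those of Dst (Bag2, 0.25) and Smim31 (Trim60, 0.76) differed by less (2.22 and 2.39 at the sites). Within 250 kb of the Dst peak, the 4 H3K4me3 peaks of other genes ranged from -0.48 to 0.13. Around Rusc2, 4 of 13 were lower (limma) and the highest difference was 0.79 (Gm12472), and around Rilpl1, 1 of 15 was higher, with the highest difference at 0.26 (Eif2b1). Around Smim31, 1 of 4 was higher and 1 lower, the highest being Trim60 with 0.86. The nearest other genes with an H3K4me3 peak were level or nearly so: Bend6 (-0.13 ± 0.22) beside Dst, Tesk1 (-0.20 ± 0.079) beside Rusc2, and Snrnp35 (0.0099 ± 0.058) beside Rilpl1.

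Other genes of the same families were read at their promoter peaks, or their highest peak where they had none. Over all peaks, 14.2% were higher and 16.4% lower in H3K4me3, and 14.4% and 14.9% in H3K27ac. The lists are short, and nothing is read about a family from a count near those shares. Of the other plakins, 5 had an H3K4me3 peak: Plec, the linker of the intermediate filament network, was lower (-0.44 ± 0.16, limma adjusted p = 0.0357), and Macf1 (-0.43), Ppl (-0.28), Eppk1 (0.42) and Evpl (0.47) did not pass. In H3K27ac 1 of 6 plakins was lower, Macf1 (-0.77 ± 0.21, adjusted p = 0.0112). Among the 5 genes of the hemidesmosome list with H3K4me3, 3 rose and 1 fell. The integrin chains Itga6 (0.48 ± 0.10, adjusted p = 0.00186) and Itgb4 (0.53 ± 0.13, adjusted p = 0.00306), the receptors of the hemidesmosome, were among those that rose. Lamb3 fell at its highest H3K4me3 peak, chr1:193271436-193273792 (-0.80 ± 0.23, adjusted p = 0.0108). In H3K27ac 1 of 6 rose, Lamb3 at a different site, chr1:193226799-193227487 (0.64 ± 0.21, adjusted p = 0.0272). The H3K4me3 median of this list was 0.48, against -0.023 over all peaks.

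In the RILP family, the promoters of Rilp (0.0021) and Rilpl2 (-0.088), the nearest relatives of Rilpl1, did not pass in H3K4me3, and 1 of 4 other members was lower, the motor adaptor gene Mapk8ip3 (-0.19 ± 0.052, adjusted p = 0.00743). Of the 13 Rab and kinase genes of the Rilpl1 pathway, 5 fell and 1 rose in H3K4me3, and 6 of 14 fell and 1 rose in H3K27ac. Over all peaks 16.4% fell and 14.2% rose in H3K4me3, and 14.9% and 14.4% in H3K27ac. Whether this list differs from all peaks was not tested. Lrrk2, the kinase that marks Rab proteins for Rilpl1, fell by 0.65 ± 0.16 in H3K4me3 (adjusted p = 0.00373) and by 0.70 ± 0.18 in H3K27ac (adjusted p = 0.00886). Rab36 fell by 0.96 ± 0.24 and 0.92 ± 0.23, and Ppm1h, the phosphatase that reverses the LRRK2 mark, rose by 0.25 ± 0.091 (adjusted p = 0.0382) and 0.42 ± 0.16 (adjusted p = 0.0437). Rab10 (0.055) and Rab12 (-0.022) did not pass in H3K4me3. Among 16 other Smim genes with an H3K4me3 peak, a family by name and not by sequence, only Smim22 rose (1.17 ± 0.25, adjusted p = 0.00153) and only Smim19 fell (-0.19 ± 0.053, adjusted p = 0.00848). In H3K27ac 3 of 15 fell (Smim4, Smim7 and Smim11) and Smim22 did not pass (0.38 ± 0.21, adjusted p = 0.154).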

How the data were processed

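The deposited values are log2 RPKM per peak and library for H3K4me3 and H3K27ac, as the authors named them in the files. The build is GRCm38, and the named tools are deepTools 3.5.1, ChIPseeker 1.34.1, DESeq2, DiffBind 3.8.0, MACS2 2.2.9.1 and Bowtie2, per the submitters' processing notes, which do not give their roles here. The values gave back whole reads within 0.05 in 100.0% of cases (a peak without reads is stored as 0.9 reads), which gave the total reads. The 5 input libraries were not used. The 8 peaks of each mark outside chromosomes 1 to 19 and X were left out, which left 25827 and 54354.

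Values were quantile normalized within a mark and fitted with limma 3.58.1 (4 group means, no covariate, mean-variance trend, two-sided, Benjamini-Hochberg over all peaks of the mark, threshold 0.05). The script was tested on simulated data. Single comparisons used exact permutation tests, or 100000 permutations for 10 animals, in scipy 1.17.1. A promoter peak lay within 1 kb of a gene's start. Alternatives were other scalings, a filter on low peaks, the code digit and mouse number of a library, replicate number as a block, the marker score and single libraries left out. Named genes are the 4 genes with all their peaks, the 3 genes most like each main peak, the nearest neighbours, and up to 4 of each gene list by smallest p plus members that did not pass; some genes the rule names are not reported here. The 4 genes and the lists were chosen with earlier results of these data known. Nothing but the animal number states that libraries are separate animals, and each animal gave 1 library per mark, so the spread holds technical as well as animal variation.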

Additional observations from a re-analysis of the deposited data

Results flagged for a closer look

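At the main peaks, 32 sets of libraries (4 genes, 4 groups and both marks) were looked at for a library far from the others of its group, and 2 stood out. Chance alone marks about 1 in 20 such groups. At the Rusc2 main H3K4me3 peak, young replicate 1 had a level of -0.15, and the next lowest young library had 1.15. At the Rilpl1 H3K27ac peak, aged group 2 replicate 3 had a level of -0.41, and the next lowest library of its group had 0.98.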

How the results depend on the processing

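All 4 main H3K4me3 peaks were higher in aged group 3 than in young under each alternative run, from 1.37 to 3.08. Each alternative used libraries of the contrast that chose the genes and peaks, so this range is a description and no independent support. With the marker score as a covariate they moved most, and Dst stood at 2.03 and Smim31 at 1.41. Lower H3K4me3 member peaks, 4 in the main model, were 1 with the code digit as a factor, 1 with a factor for the mouse number, 1 without code digit 6, 0 with the score in the model and 0 among mouse numbers under 100, while the share of all H3K4me3 peaks called lower went from 16.4% to 4.25%, 6.82%, 4.57%, 0.182% and 0.867%. Higher H3K27ac member peaks, 10 in the main model, were 3, 5, 4, 0 and 0 in the same order, and lower ones, 4 in the main model, were 0, 2, 0, 0 and 0, and the shares of all H3K27ac peaks called in each direction were also smaller. The cause was not tested. Leaving out single libraries gave 4 to 6 higher and 4 lower H3K4me3 member peaks, and 5 to 11 higher and 4 to 6 lower H3K27ac member peaks. In aged group 2 against aged group 1 the H3K4me3 gap of Rusc2 passed with the values as deposited (0.49, adjusted p = 0.0429), and ran from 0.36 to 0.52 with single libraries left out. Within aged group 3, the relation of H3K4me3 to the score had r = 0.65 at Dst, 0.49 at Rusc2 and 0.42 at Rilpl1 with the values as deposited. In the 7 animals with a score above 1, an alternative added after the data were seen, it was 0.58, 0.64 and -0.07 at these genes and 0.92 at Smim31. Replicate numbers did not pair the animals: over 31 pairs of libraries with the same number, the median r was 0.037 in H3K4me3 and 0.059 in H3K27ac. With the replicate block the H3K4me3 members higher and lower were 5 and 3, those of H3K27ac 8 and 6, and the Dst and Smim31 H3K27ac differences 2.22 and 2.41. The filter at the lower quartile changed no call at the main peaks. Low reads limit the young values, with as few as 3 at Rilpl1.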
